A study of Mus musculus with 8 samples.

Results

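The gene Igf2r was examined together with 9 genes of mannose 6-phosphate sorting and of the IGF and insulin receptors, in RNA from sorted mouse blood stem and progenitor cells. The 10 genes were taken by symbol from the 26146 rows of the deposited count table, and all 10 were found. They are Igf2r, its antisense RNA gene Airn, M6pr, Gnptab, Gnptg, Nagpa, Igf1r, Insr, Irs1 and Irs2. The set was chosen by the measured difference of Igf2r between genotypes, which had passed the genome-wide test, so the genotype differences of the 10 genes are given as a description and without a test of their own.

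RNA was sequenced from 4 Jmjd6 KO mice and 4 wild type mice, with 1 library per mouse. In the Jmjd6 KO mice, according to the labels, a Cre specific to a cell type induced deletion of a floxed Jmjd6 gene in the blood lineages, and the other group is labelled wild type. The labels do not name the promoter of the Cre, the strain, or the age of the mice, nor whether wild type mice carry the Cre or the floxed allele. The cells were Lin-Sca1+Kit+ (LSK) cells, the bone marrow fraction that holds haematopoietic stem cells and early multipotent progenitors.

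Total counts ran from 9964528 to 13516922 per library in Jmjd6 KO and from 9344779 to 15079960 in wild type. Jmjd6 itself stood at 28.7 ± 1.41 CPM in Jmjd6 KO and 58.6 ± 5.93 CPM in wild type (mean ± SD, n = 4 each), where CPM is the count scaled to library size by the TMM method. In these gene totals, incomplete deletion and reads from outside the deleted stretch cannot be told apart. The LSK genes Kit, Ly6a and Cd34 were present in all 8 libraries, with Kit between 416 and 508 CPM. Of 8 T lineage genes Cd3e, Cd3d, Cd3g and Cd8a stayed under 1 CPM in all 8 libraries, while Lck lay between 54.8 and 84.5 CPM and Cd4 between 4.32 and 21.9 CPM. Jmjd6 KO replicate 3 and wild type replicate 4 had 0 counts of 4 Y-linked genes together, against 3660 to 4814 in the other 6 libraries. Wild type replicate 1 had the highest summed level of 8 neutrophil and granule genes, at 4735 CPM, while the other 7 libraries held 927 to 2125 CPM.

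Enzymes bound for the lysosome receive a mannose 6-phosphate tag in the Golgi. A phosphotransferase, of which Gnptab encodes the catalytic subunits and Gnptg a further subunit, adds a capped phosphate, and the enzyme encoded by Nagpa removes the cap. Igf2r and M6pr encode the receptors that bind the tag and carry the enzymes onward. The Igf2r protein also binds the growth factor IGF2 at the cell surface and takes it to the lysosome for breakdown, whereas Igf1r and Insr encode receptor tyrosine kinases that signal through the adaptor proteins encoded by Irs1 and Irs2. In most mouse tissues Igf2r is imprinted and read from the maternal chromosome, while Airn is read from the paternal chromosome, in the opposite direction, and silences the paternal Igf2r copy.

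The regions around the starts of Igf2r and Airn are shown because these overlapping genes had the lowest fold changes among the 9 tested genes. Each window runs from 250 bases before the RefSeq start to 50 bases after it, on GRCm38.p6 (the build that mm10 names), 5′ to 3′ on the strand of the gene. The Igf2r window is chr17:12769657-12769956 on the minus strand, and that of Airn is chr17:12741061-12741360 on the plus strand. Capitals mark CACGTG, a palindrome that basic helix-loop-helix factors bind, among them the lysosomal regulator TFEB; the motif was chosen after the windows were seen.
Igf2r: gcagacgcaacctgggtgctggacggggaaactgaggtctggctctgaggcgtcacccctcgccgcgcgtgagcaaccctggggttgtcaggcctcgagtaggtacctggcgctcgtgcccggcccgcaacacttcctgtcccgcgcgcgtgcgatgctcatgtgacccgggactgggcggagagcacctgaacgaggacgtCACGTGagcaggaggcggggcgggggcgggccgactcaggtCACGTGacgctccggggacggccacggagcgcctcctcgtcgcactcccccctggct
Airn: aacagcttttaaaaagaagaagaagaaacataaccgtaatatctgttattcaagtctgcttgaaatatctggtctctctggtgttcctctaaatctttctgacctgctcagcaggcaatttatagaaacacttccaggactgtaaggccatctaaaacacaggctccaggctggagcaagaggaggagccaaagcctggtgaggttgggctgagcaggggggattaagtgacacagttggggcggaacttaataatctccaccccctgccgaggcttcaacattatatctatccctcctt

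The Igf2r window held 34 CpG dinucleotides and the Airn window 3, where the median over all 32851 promoter windows was 7. Igf2r had 2 matches to CACGTG, which 7.15% of all windows held at least once and 0.594% held 2 or more times. The motif reads the same on both strands. Windows of RefSeq matched 8 of the 10 genes, and 5 of these 8 held CACGTG (62.5%): Igf2r, Gnptg, Nagpa, Irs1 and Irs2. Counted by gene, 8.09% of all genes held it. Since the motif was chosen after these windows were seen, the share is not evidence about the set. The matches outside Igf2r are shown with 12 bases on each side, so that their surroundings can be compared; the capitals again mark CACGTG.
Gnptg, chr17:25240120-25240149, minus strand: ccggctgtcactCACGTGaccgtgagaccc
Nagpa, chr16:5204005-5204034, minus strand: ctggcctggaatCACGTGgggcgagcccac
Nagpa, chr16:5203990-5204019, minus strand: gtggggcgagccCACGTGaccggagcacca
Irs1, chr1:82291537-82291566, minus strand: cagaggctccgtCACGTGttttgctcctct
Irs2, chr8:11008956-11008985, minus strand: gtaacgcagagtCACGTGttgttttgctct
These matches are a description of the letters in the windows; binding was not measured.

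Igf2r (ENSMUSG00000023830.14, chromosome 17 from 12682406 to 12769664 on the minus strand of mm10, with 49 exon blocks in GENCODE M21) had the lower level in Jmjd6 KO. It stood at 5.98, 9.05, 6.71 and 5.81 CPM in Jmjd6 KO replicates 1 to 4, and at 22, 16.6, 20.5 and 21.6 CPM in wild type replicates 1 to 4. The highest Jmjd6 KO library lay below the lowest wild type library. The counts behind these values were 68 to 88 per library in Jmjd6 KO and 199 to 342 in wild type. The mean was 6.89 ± 1.49 CPM in Jmjd6 KO and 20.2 ± 2.44 CPM in wild type (SD, n = 4 each), so Jmjd6 KO held 34.2% of the wild type level. The log2 fold change of Jmjd6 KO over wild type in edgeR was -1.55, with an SE of 0.22 and a 95% interval from -2.04 to -1.06.

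**Figure D1:**
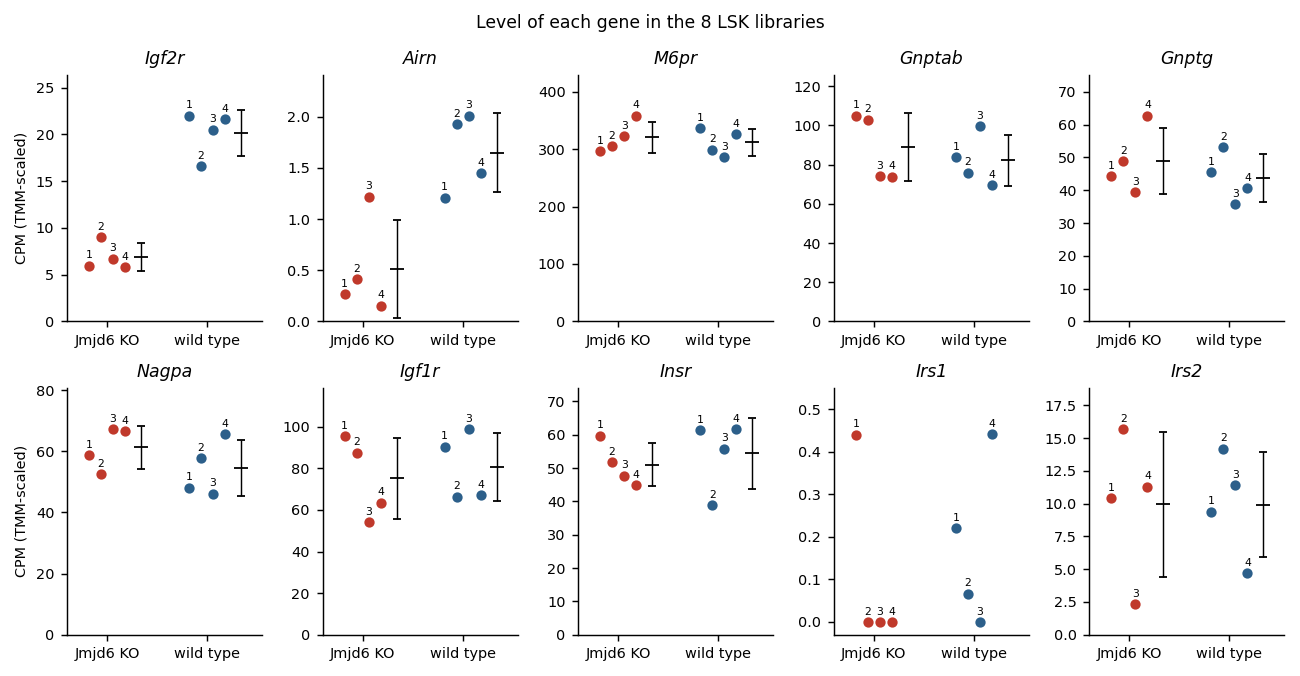
Level of each of the 10 genes (CPM, TMM-scaled, linear axes) in Jmjd6 KO and wild type libraries; each point is 1 mouse, numbered by replicate, and the bar gives the mean and SD (left out for Irs1, which has at most 7 counts in a library). Only the Igf2r panel shows groups that do not overlap, with at most 9.05 CPM in Jmjd6 KO and at least 16.6 CPM in wild type.

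Igf2r was the 1 of the 9 tested genes with an adjusted p under 0.05 over all genes in edgeR's quasi-likelihood test, where 0.0595% of all 13439 tested genes passed. It was also the 1 of the 9 whose groups did not overlap, against 4.19% of all tested genes. Both counts rest on the contrast for which Igf2r was picked and are not evidence about the set. Only 88 tested genes had a lower fold change than Igf2r. The adjusted p of Igf2r was 0.0357 by edgeR and lay between 0.0532 and 0.183 with each library left out in turn, so the call needed all 8 libraries, while the log2 fold change stayed between -1.69 and -1.47. With the replicate number as a block the adjusted p was 0.352 by edgeR.

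In RNA from a bulk sort, fewer cells that express a gene and less of its RNA per cell cannot be told apart. The summed level of 6 stem cell genes (Procr, Slamf1, Hlf, Mecom, Meis1 and Hoxa9) moved with genotype as Igf2r did, at 496 to 624 CPM in Jmjd6 KO and 668 to 837 CPM in wild type, without overlap. Of these 6 genes 5 had fold changes below 0, and 0 passed by edgeR, DESeq2 or limma voom, with 3 at an unadjusted p under 0.05 by edgeR, which 6.06% of all tested genes reached. Meis1 and Hlf were the most abundant of the 6. Meis1 stood at 214 to 304 CPM in Jmjd6 KO and 304 to 386 CPM in wild type. Hlf stood at 118 to 161 CPM in Jmjd6 KO and 178 to 276 CPM in wild type, without overlap. Slamf1 went the other way, at 9.25 to 11.9 CPM in Jmjd6 KO and 3.98 to 9.04 CPM in wild type, without overlap. Of all tested genes 4.19% did not overlap. Mecom and Hoxa9 overlapped, as did Procr, at 23.6 to 74.7 CPM in Jmjd6 KO and 36.9 to 74.9 CPM in wild type. Of a B lineage list all 6 tested genes had fold changes above 0 and 0 passed, with summed levels of 400 to 697 CPM in Jmjd6 KO and 380 to 488 CPM in wild type. Of the T lineage list 3 of 4 tested genes lay above 0, 2 had an unadjusted p under 0.05 and 0 passed, with summed levels of 85.9 to 103 CPM in Jmjd6 KO and 67.2 to 92.9 CPM in wild type. Below 0 lay 6 of 7 tested genes of the erythroid list, 5 of 6 of the megakaryocyte list and 6 of 8 of the LSK list. Of these lists 0 genes passed, with 2, 1 and 0 at an unadjusted p under 0.05, and their summed levels overlapped between groups. The part of these shifts in the Igf2r difference was not tested. The summed levels of the macrophage list, at 165 to 325 CPM in Jmjd6 KO and 165 to 320 CPM in wild type, and of the endothelial list, at 117 to 191 CPM in Jmjd6 KO and 86.2 to 164 CPM in wild type, overlapped. The endothelial genes Cdh5 and Lyve1 were under 1 CPM in all 8 libraries, whereas Pecam1 lay between 48.6 and 115 CPM, Emcn between 12.6 and 40.9 CPM and Tek between 14.9 and 37.1 CPM. Igf2r gave a log2 fold change of -1.49 without wild type replicate 1, the library with the highest granule gene sum, and -1.51 without the pair of libraries that lacked Y-linked counts.

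Airn (ENSMUSG00000078247.4, chromosome 17 from 12741311 to 12860136 on the plus strand) is the noncoding RNA gene that starts inside Igf2r, 28353 bases from the Igf2r start. Its counts were 3, 4, 16 and 2 in Jmjd6 KO replicates 1 to 4 and 11, 29, 20 and 23 in wild type replicates 1 to 4. Jmjd6 KO replicate 3 reached the wild type range, and the other 3 Jmjd6 KO libraries lay below it. Airn averaged 0.513 ± 0.483 CPM in Jmjd6 KO and 1.65 ± 0.381 CPM in wild type (SD, n = 4 each), a log2 fold change of -1.65 with an SE of 0.60. Without Jmjd6 KO replicate 3 the log2 fold change was -2.57. Airn passed the filter on low counts through its 4 wild type libraries and Jmjd6 KO replicate 3.

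Igf2r and Airn share 28354 bases of the genome but no exonic base in GENCODE M21. Airn exons cover 114 bases within the Igf2r gene, and 519 bases of Igf2r exon lie within the Airn gene. Neither the labels nor the table state the annotation or strand setting of the authors' counting, so reads of one gene may have been counted for the other. Per 100 Igf2r counts there were 4.41, 4.55, 18.2 and 2.67 Airn counts in Jmjd6 KO replicates 1 to 4, and 5.53, 11.6, 9.8 and 6.73 in wild type replicates 1 to 4. The groups overlapped in this ratio.

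M6pr (chromosome 6, 122308720 to 122317680, plus strand), which encodes the small, cation-dependent tag receptor, differed between genotypes by less than the spread of its replicates. It stood at 297, 305, 323 and 358 CPM in Jmjd6 KO replicates 1 to 4 and at 336, 299, 286 and 326 CPM in wild type replicates 1 to 4. Its log2 fold change was 0.04 (SE 0.13), with a 95% interval from -0.25 to 0.33. M6pr had the smallest replicate spread of the 9 tested genes, with a biological coefficient of variation of 15.7%, where the median over all tested genes was 24.2%. Per kb of annotated exon, M6pr exceeded Igf2r 111, 75.2, 107 and 138 times in Jmjd6 KO replicates 1 to 4 and 34.1, 40.1, 31.2 and 33.7 times in wild type replicates 1 to 4. This ratio of levels did not overlap between groups, and it carries the same Igf2r values as above.

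The genes that make and uncover the tag had fold changes slightly above 0, with overlapping groups. Gnptab (chromosome 10, 88379132 to 88447329, plus strand) averaged 89 ± 17.5 CPM in Jmjd6 KO and 82.3 ± 12.9 CPM in wild type (SD, n = 4 each), a log2 fold change of 0.11 (SE 0.18). Gnptg (chromosome 17, 25233331 to 25240124, minus strand) ranged from 39.5 to 62.7 CPM in Jmjd6 KO and from 35.8 to 53.1 CPM in wild type, a log2 fold change of 0.16 (SE 0.19). Of the 2249 exonic bases of Gnptg, 1113 are shared with Unkl on the opposite strand, so its level may hold reads of that gene. Nagpa (chromosome 16, 5195289 to 5204012, minus strand) averaged 61.3 ± 7.04 CPM in Jmjd6 KO and 54.5 ± 9.06 CPM in wild type (SD, n = 4 each), a log2 fold change of 0.17 (SE 0.17). The intervals of all 3 genes hold 0 and reach at most 0.58 upward and -0.28 downward on the log2 scale.

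The receptor kinase genes likewise overlapped between groups. Igf1r (chromosome 7, 67952827 to 68233668, plus strand) stood at 95.5, 87.5, 54.1 and 63.5 CPM in Jmjd6 KO replicates 1 to 4 and at 90.4, 66.4, 98.9 and 67.3 CPM in wild type replicates 1 to 4. High and low libraries occurred in both groups. Its log2 fold change was -0.10 (SE 0.21). Insr (chromosome 8, 3122061 to 3279617, minus strand) ranged from 44.8 to 59.7 CPM in Jmjd6 KO and from 38.8 to 61.7 CPM in wild type, with a log2 fold change of -0.09 (SE 0.19).

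The adaptor genes differed more between mice than between genotypes. Irs2 (chromosome 8, 10984681 to 11008458, minus strand) stood at 10.4, 15.7, 2.36 and 11.3 CPM in Jmjd6 KO replicates 1 to 4 and at 9.39, 14.2, 11.4 and 4.73 CPM in wild type replicates 1 to 4. The lowest library of each genotype was the one without Y-linked counts. The group means of Irs2 were 9.95 ± 5.57 CPM in Jmjd6 KO and 9.93 ± 3.98 CPM in wild type (SD, n = 4 each). Its 95% interval on the log2 scale ran from -1.05 to 1.05, so changes of up to that size in either direction are compatible with these counts. Irs1 (chromosome 1, 82233101 to 82291416, minus strand) had 5, 0, 0 and 0 counts in Jmjd6 KO replicates 1 to 4 and 2, 1, 0 and 7 counts in wild type replicates 1 to 4. It did not pass the filter on low counts and was not tested.

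**Figure D2:**
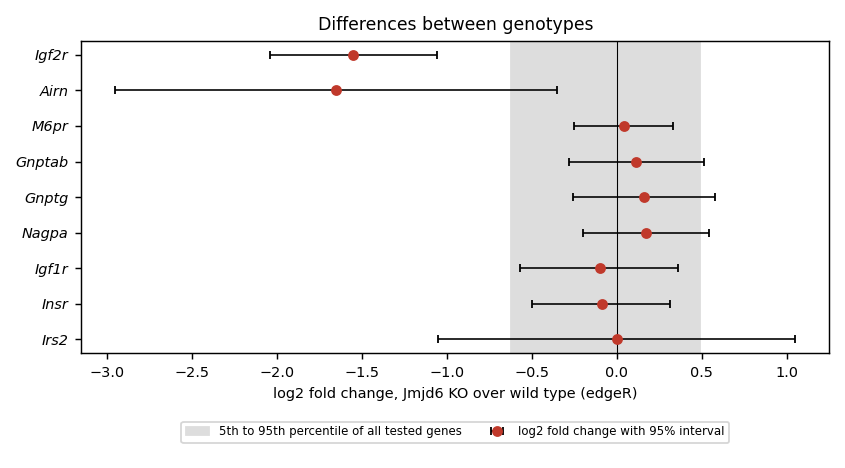
Log2 fold change of Jmjd6 KO over wild type for the 9 tested genes (points, edgeR) with 95% intervals; the grey band runs from -0.62 to 0.49, the 5th to 95th percentile of all 13439 tested genes. Igf2r and Airn lie below the band, and the other 7 genes lie inside it.

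The order of the 10 genes by level was examined as a separate measure, since levels of different genes within a library did not enter the choice. Levels were compared as log2 CPM per kb of annotated exon, paired within the 8 libraries, by a two-sided exact permutation test over 9 neighbouring pairs with Benjamini-Hochberg adjustment; the smallest p it allows is 0.00781. By the mean over both genotypes M6pr came first, followed by Nagpa, Gnptg, Gnptab, Igf1r, Insr, Irs2, Igf2r, Airn and Irs1. M6pr lay 1.64 ± 0.18 log2 units above Nagpa (mean ± SD of the difference, n = 8, adjusted exact permutation p = 0.0117). The genes of tag synthesis and uncovering came next. Nagpa lay 0.25 ± 0.28 above Gnptg in 8 of 8 libraries (adjusted exact permutation p = 0.0117). Gnptg lay 0.50 ± 0.39 above Gnptab in 7 of 8 libraries (adjusted exact permutation p = 0.0201). Gnptab lay 1.66 ± 0.17 above Igf1r in 8 of 8 libraries (adjusted exact permutation p = 0.0117). Igf1r exceeded Insr by 0.26 ± 0.27 in 6 of 8 libraries (adjusted exact permutation p = 0.0439), and this pair no longer passed in 6 of the 8 runs without 1 library.

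Irs2 and Igf2r were the neighbours whose order was not the same in both genotypes. Per kb of exon Igf2r stood at 0.74 ± 0.16 CPM in Jmjd6 KO and 2.17 ± 0.262 CPM in wild type (SD, n = 4 each). Irs2 stood at 1.57 ± 0.881 CPM per kb in Jmjd6 KO and 1.57 ± 0.63 CPM per kb in wild type (SD, n = 4 each), so that Igf2r ranked below Irs2 by group mean in Jmjd6 KO and above it in wild type. Igf2r exceeded Irs2 in 1 of 4 Jmjd6 KO libraries and 3 of 4 wild type libraries. The test of this pair over all 8 libraries (adjusted exact permutation p = 0.734) mixed in the genotype difference by which Igf2r was chosen. The test of Igf2r against Airn did so too, and both pairs are given as a description. The neighbours were set by sorting the same levels. Among the 13159 tested genes with an annotated length, these levels of Igf2r exceeded 10.7% of genes in Jmjd6 KO and 22.6% in wild type. M6pr exceeded 94% of genes in Jmjd6 KO and 94.5% in wild type by the same measure.

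**Figure D3:**
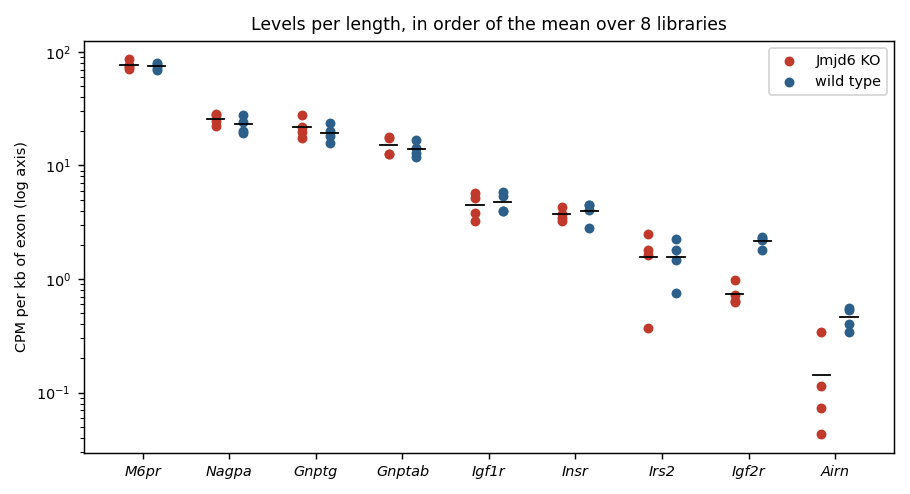
Levels per length (CPM per kb of annotated exon, log axis) of 9 genes in Jmjd6 KO and wild type libraries, ordered by the mean of the log2 levels over the 8 libraries; points are mice and lines are group means. Irs1 is left out because libraries at 0 cannot be drawn on a log axis. Igf2r lies between 0.624 and 0.972 CPM per kb in Jmjd6 KO and between 1.79 and 2.36 CPM per kb in wild type.

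The other genes of these pathways were described from 4 lists, and 0 of their 116 tested genes passed edgeR's test in either direction, with 3 at an unadjusted p under 0.05. By DESeq2 and by limma voom, which called 0.473% and 0.231% of all genes, 0 of them passed as well. The sorting list holds 28 genes of transport between Golgi and endosome: adaptors, clathrin chains, retromer and sorting nexins, together with the sorting receptors Sort1, Sorl1 and Scarb2, the protease gene Furin, and Arf1, Rab9 and Plin3. All 28 were tested, and their median log2 fold change was 0.01 where that of all tested genes was 0.00. At an unadjusted p under 0.05, which 6.06% of all tested genes reached, stood 1 of the 28. This was Ap1g2, which encodes a gamma subunit of a clathrin adaptor. It stood at 68.6 ± 3.39 CPM in Jmjd6 KO and 94.5 ± 7.62 CPM in wild type (SD, n = 4 each). Ap1g2 was also the 1 of the 28 without overlap, against 4.19% of all tested genes. Its log2 fold change was -0.46 with an SE of 0.13, and edgeR gave an adjusted p of 0.553. Gga3, Vps29 and Snx5 gave log2 fold changes of -0.26, 0.30 and 0.29 with overlapping groups.

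Of 46 genes listed as lysosomal enzymes and cofactors with the tag, all were tested, and their median log2 fold change was 0.01, with 25 above 0 and 21 below. Whether each of these proteins carries the tag was not measured. Gm2a, which encodes the activator of ganglioside breakdown, had the smallest p: it stood at 516 ± 101 CPM in Jmjd6 KO and 373 ± 60.2 CPM in wild type (SD, n = 4 each), with a log2 fold change of 0.47. The SE was 0.18 and the adjusted p by edgeR 0.772. Its groups overlapped. Lgmn, an asparaginyl protease gene, gave 0.67, Ctsz, a cathepsin gene, gave 0.31 and Idua, an iduronidase gene, gave -0.39. The sialidase gene Neu1, named here after its values were seen, was the 1 gene of the 46 without overlap, against 4.19% of all tested genes. It stood at 28.3 to 35.2 CPM in Jmjd6 KO and 36 to 40.2 CPM in wild type, with a log2 fold change of -0.24 (SE 0.15).

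The list of IGF and insulin ligands, binding proteins and genes related to them by name or function was mostly near 0 in these cells, and 5 of 20 listed genes were tested. Igf2, the ligand of the Igf2r protein, had 2 counts in the 4 Jmjd6 KO libraries together and 3 in the 4 wild type libraries together. Igf1, the main ligand of the Igf1r protein, stood at 8.33 ± 5.11 CPM in Jmjd6 KO and 7.1 ± 3.62 CPM in wild type (SD, n = 4 each), with a log2 fold change of 0.23 (SE 0.47). Igfbp4, which encodes an IGF binding protein and is named here after its values were seen, was the most abundant of the 5. It stood at 521, 473, 123 and 535 CPM in Jmjd6 KO replicates 1 to 4 and at 431, 533, 495 and 208 CPM in wild type replicates 1 to 4. As with Irs2, the lowest library of each genotype was the one without Y-linked counts. Igfbp7 gave a log2 fold change of 0.05. Igf2bp2 and Igf2bp3, which encode RNA-binding proteins and not binding proteins of the IGF ligands, gave 0.16 and -0.25.

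Downstream of the receptor kinases 37 of 40 listed signalling genes were tested, and 28 lay below 0 and 9 above, with a median log2 fold change of -0.12. Over all tested genes 50.4% lay below 0. The list median was -0.03 without Jmjd6 KO replicate 3 and -0.05 without the pair of libraries that lacked Y-linked counts. It was -0.06 by limma voom or without Jmjd6 KO replicate 4, wild type replicate 1 or wild type replicate 3. Under the other alternatives the median lay between -0.16 and -0.09. Inppl1 encodes an inositol phosphatase that acts on the lipid product of PI3 kinase. Of the 37 it was the 1 gene at an unadjusted p under 0.05 by edgeR, which 6.06% of all tested genes reached. It was also the 1 gene without overlap, against 4.19% of all tested genes. Inppl1 stood at 2.38, 1.85, 1.6 and 2.01 CPM in Jmjd6 KO replicates 1 to 4. In wild type replicates 1 to 4 it stood at 3.2, 4.06, 5.22 and 3.91 CPM. The log2 fold change was -1.06 with an SE of 0.33, and edgeR gave an adjusted p of 0.666. Grb2, Ptpn11 and Eif4ebp1, which encode an adaptor, a phosphatase and a translation repressor, gave 0.20, -0.36 and 0.33 with overlapping groups.

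**Figure D4:**
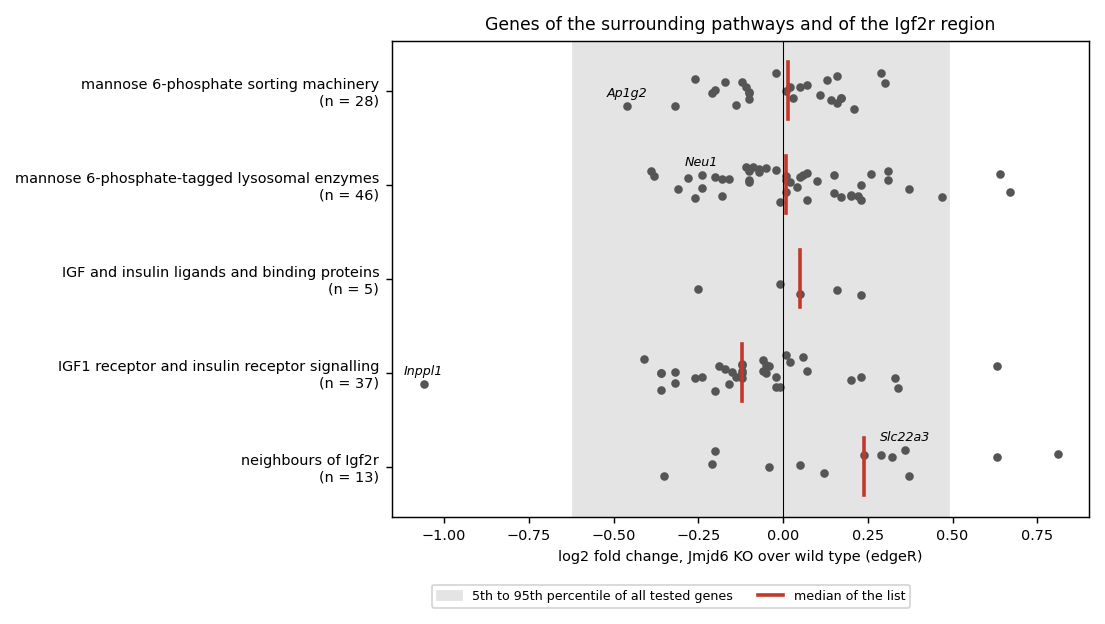
Log2 fold change of Jmjd6 KO over wild type for tested genes of the 4 pathway lists and of the genes within 1 Mb of Igf2r (points, spread vertically only to separate them); red lines are list medians and the grey band is the 5th to 95th percentile of all tested genes, -0.62 to 0.49. Labelled genes are those whose groups did not overlap: Ap1g2, Neu1, Inppl1 and Slc22a3.

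No tested gene around Igf2r on chromosome 17 passed the test. Within 1 Mb of either end of Igf2r the count table held 30 genes beside Airn, of which 13 were tested. Of these 13 tested neighbours 0 passed by edgeR, DESeq2 or limma voom. By edgeR 1 had an unadjusted p under 0.05, which 6.06% of all tested genes reached. Of the 13, 9 lay above 0 and 4 below, and the median log2 fold change was 0.24. That median was -0.02 without Jmjd6 KO replicate 3, 0.04 without the pair of libraries that lacked Y-linked counts and 0.06 by limma voom. Under the other alternatives the median lay between 0.18 and 0.33, highest without wild type replicate 1. Beyond the start of Igf2r the nearest gene in the table was Mas1, at 71.4 kb, with 13 counts in Jmjd6 KO and 7 in wild type. The nearest tested genes on the 2 sides were Slc22a3 and Pnldc1.

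Slc22a3 encodes an organic cation transporter, lies 175 kb from Igf2r and belongs to the same imprinted cluster, where it is imprinted in the placenta. It stood at 232, 235, 212 and 209 CPM in Jmjd6 KO replicates 1 to 4 and at 174, 187, 171 and 160 CPM in wild type replicates 1 to 4. All 4 Jmjd6 KO libraries were higher than all 4 wild type libraries, and the log2 fold change was 0.36 with an SE of 0.13. Slc22a3 was the 1 of the 13 tested neighbours without overlap, against 4.19% of all tested genes. EdgeR gave Slc22a3 an adjusted p of 0.746. Pnldc1, 119 kb on the other side, had a log2 fold change of 0.81 (SE 0.53) from 51 counts in Jmjd6 KO and 30 in wild type. Mrpl18, Tcp1 and Acat3, which encode a mitochondrial ribosomal protein, a chaperonin subunit and an acetyl-CoA acetyltransferase, gave 0.32, 0.24 and 0.29.

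**Figure D5:**
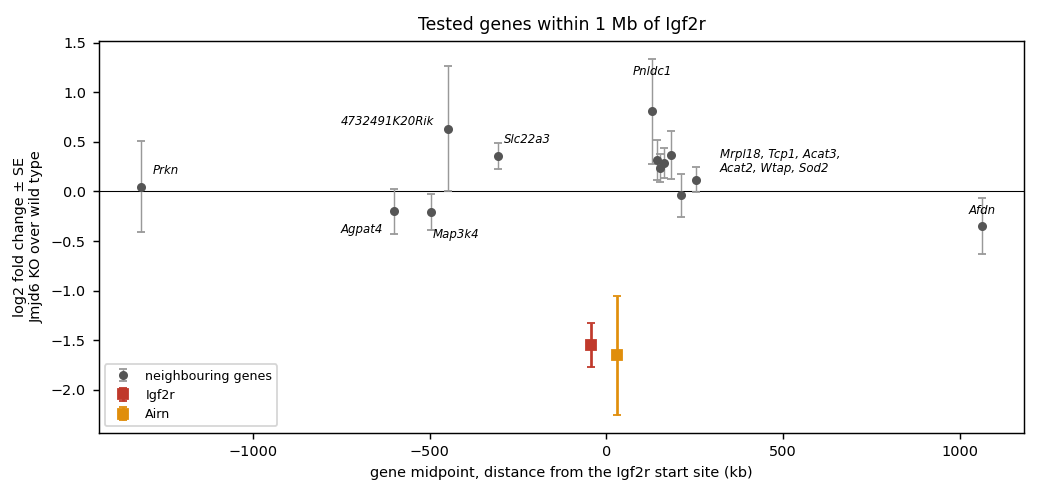
Log2 fold change of Jmjd6 KO over wild type (± SE, edgeR) for the tested genes that reach within 1 Mb of Igf2r, by distance of the gene midpoint from the Igf2r start site in kb. Igf2r at -1.55 and Airn at -1.65 lie below all 13 neighbours, which range from -0.35 to 0.81.

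Across the 8 libraries the genes whose log2 CPM was most like that of Igf2r were Cnot7 (Pearson r = 0.98), Aoah (0.97), Gprasp2 (0.95), H2-Q7 (0.94) and Tmem65 (0.94), out of 11556 genes compared. Each of these 5 genes was lower in Jmjd6 KO, with log2 fold changes of -0.31, -1.41, -1.02, -2.54 and -0.53, so the likeness carries the genotype difference. H2-Q7, a class I histocompatibility gene on chromosome 17, was the 1 of the 5 that passed edgeR's test (adjusted p = 0.00128). Among the other 8 tested genes Airn was closest to Igf2r, with r = 0.80.

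With the genotype means subtracted, the genes most like Igf2r over the 8 libraries were Txlng (Pearson r = 0.96), Adgre1 (0.96), Zfp397 (0.95), Elovl5 (0.93) and Atp2b1 (0.93), and Airn had r = 0.13. Their log2 fold changes lay between -0.11 and 0.02. Adgre1 encodes the macrophage surface protein F4/80 and stood at 6.77, 15.9, 7.09 and 5.89 CPM in Jmjd6 KO replicates 1 to 4 and at 10.5, 5.12, 9.54 and 13.1 CPM in wild type replicates 1 to 4. Its highest Jmjd6 KO library and lowest wild type library, both replicate 2, were also the highest and the lowest for Igf2r. The Adgre1 groups overlapped. The summed macrophage list was highest in replicate 3 of the Jmjd6 KO libraries, at 325 CPM, with 270 CPM in replicate 2. Of the wild type libraries it was lowest in replicate 2, at 165 CPM, with 173 CPM in replicate 3. In Jmjd6 KO the list genes C1qa, C1qb, C1qc, Vcam1 and Cd68 were highest in replicate 3, Csf1r in replicate 4 and Mrc1 in replicate 2. The part of macrophage RNA in the Igf2r values was not tested. These correlations were picked as the highest of many, and the libraries share depth and cell composition.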

How the data were processed

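The deposited table holds raw counts per gene symbol for 8 libraries. Reads were aligned with HISAT2 to mm10, per the submitters' processing notes; the labels do not state the counting tool, annotation or strand mode. Columns were matched to samples by genotype and replicate number, and no 2 replicates agreed within sampling noise (chi-square per degree of freedom at least 6.56).

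Counts were tested by the quasi-likelihood test of edgeR 4.0.16 (R 4.3.3), Jmjd6 KO against wild type, no covariate, TMM scaling and the filterByExpr defaults (at least 10 counts at the median depth and 15 in total), leaving 13439 genes. Benjamini-Hochberg adjustment ran over all of them, with calls under 0.05. Log2 CPM used a prior count of 2. Exon lengths and positions came from GENCODE M21 and promoters from RefSeq. The fit and the paired test were tested on simulated data.

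The members and lists were chosen with earlier results of these data known. Named were all members, the 4 genes with the smallest p per list, the nearest neighbours and the 5 genes most like Igf2r; 1 gene that this rule names is not reported here. Alternatives were other scalings and filters, DESeq2 1.42.0, limma 3.58.1 voom, a replicate block, and libraries left out.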

Additional observations from a re-analysis of the deposited data

Results flagged for a closer look

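Of 22 groups of 4 libraries examined (the 10 genes and Jmjd6 in each genotype), 1 had a library far from the others at a level that chance gives in about 1 of 20 groups. Irs1 in Jmjd6 KO had 5 counts in replicate 1 and 0 in the other 3 libraries, so the gap of the highest library was 1 of the whole range. With 0 in the other 3 libraries the gap is 1 at any count in replicate 1, so low counts fixed this flag. At these counts the difference amounts to a few reads.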

How the results depend on the processing

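The log2 fold change of Igf2r kept its direction under all 16 alternatives and its call under 6: both other scalings, both other filters, DESeq2 and limma voom. The call was lost with the replicate block, at -1.56 with an adjusted p of 0.352, without the pair of libraries that lacked Y-linked counts, at -1.51 with 0.142, and with each library left out, at -1.69 to -1.47. Deviations of same-numbered libraries correlated between -0.19 and 0.03, and 0 of 8 libraries correlated best with their own number. The highest correlation, 0.42, was between Jmjd6 KO replicate 3 and wild type replicate 4, which lacked Y-linked counts. These correlations cannot decide whether the replicate numbers pair the samples, since other differences between the libraries enter them. The count of called genes over the whole table, 8, was 72 by DESeq2, 31 by limma voom, 3 with the replicate block, 4 without the libraries that lacked Y-linked counts and between 2 and 8 with single libraries left out. The cause was not tested. Of the other members Airn moved by more than its replicate spread, to -2.57 without Jmjd6 KO replicate 3 and -2.64 without the libraries that lacked Y-linked counts; the other 7 stayed within theirs in all 16. The lists and the neighbours had 0 calls under all 16. Of 9 neighbouring pairs of levels over both genotypes, set by sorting the same levels, 8 passed. The count was the same with the longest transcript or library size only, and 7 to 8 with single libraries left out. The pair of Irs2 and Igf2r, which did not pass, and that of Igf2r and Airn, which did, mix in the genotype difference by which Igf2r was chosen. Igf2r stood above Irs2 in 3 of the 8 runs with single libraries left out. Depth limits Airn and Irs1 most.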
